A study of Mus musculus with 11 samples.

Results

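Platelet-derived growth factors and their receptors were followed through the cells of the injured mouse kidney. The 6 genes *Pdgfa*, *Pdgfb*, *Pdgfc*, *Pdgfd*, *Pdgfra* and *Pdgfrb* were taken by gene symbol from the 28692 genes of the deposited count matrices. PDGF ligands are dimeric growth factors, secreted by epithelial, endothelial and blood-derived cells, that bind receptor tyrosine kinases on mesenchymal cells and drive their division and migration. PDGF-A and PDGF-B leave the cell in active form, whereas PDGF-C and PDGF-D carry a CUB domain that proteases cut off before they bind. PDGFRα and PDGFRβ pair on binding, phosphorylate each other and signal through PI3 kinase, Ras and phospholipase Cγ, and in the kidney they mark fibroblasts, pericytes and mesangial cells.

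Single-cell RNA-seq (10x Genomics, 3′ chemistry) was run on whole kidneys of male C57Bl/6 mice, in 11 libraries. Surgery was done at 10 weeks of age. The 5 control libraries (Ctrl, N1, N2, AN1 and AN2) came from naive kidneys of age-matched mice, and their names form 3 sets, Ctrl, N and AN. The 3 UIR libraries (UIR, UIR1 and UIR2) came from left kidneys 28 days after unilateral ischemia-reperfusion, in which the left renal pedicle was clamped for 30 minutes at a body temperature of 37 °C. The 3 UUO libraries (UUO, UUO1 and UUO2) came from left kidneys 28 days after irreversible ligation of the left ureter (unilateral ureteral obstruction). Neither injury group has a sham-operated control here, and the methods give as many mice per group as there are libraries without tying one to the other, so p-values measure the spread between libraries. No engineered allele is named for any group.

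The libraries held 49503312 to 117043590 unique molecular identifiers (UMIs, each 1 captured transcript molecule). After droplet calling, doublet removal and filters, 40491 cells were kept, of which 10233 were control, 16929 UIR and 13329 UUO cells. The limit of 30% mitochondrial UMIs acted unequally. Over it were 3569 of 6266 called droplets in Ctrl and 6701 to 7845 of 8856 to 9985 in the other controls. In UIR, UIR1 and UIR2 they were 1337 of 5688, 4695 of 12762 and 2157 of 8118. In UUO, UUO1 and UUO2 they were 152 of 4833, 256 of 6061 and 345 of 4501. Its part in the differences was tested only through a limit of 15%. Median UMIs per cell ran from 2499 to 5023.5 in control, from 2586 to 3845 in UIR and from 3075 to 4057.5 in UUO libraries. Of 40277 distinct cell barcodes, 213 occurred in more than 1 library. Cells were clustered and named from marker genes into proximal tubule (PT), loop of Henle (LOH), distal tubule (DT), collecting duct principal (CD-P) and intercalated (CD-I) cells, failed repair tubular epithelial cells (frTEC), endothelium (Endo), macrophages (Macro) and stroma, and each class expressed its own markers in all 3 groups. Stroma was further divided into Fibro 1, Fibro 2 and Fibro 3, which are names for clusters rebuilt here from marker genes. The frTEC name too rests on marker scores and does not show failed repair in control cells. Cluster 18, led by *Fst*, *Lypd2* and *Bst1*, held 52.88% of control frTEC cells. Cluster 7, led by *Ubd*, *Havcr1* and *C3*, held 14.42% of them, against 46.06% in UIR and 37.08% in UUO. PT fell to 79 cells in UUO against 5305 in control and 1472 in UIR, and control stroma held only 107 cells, so values in these rest on few cells.

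UMIs were summed per library and class, put on a scale of 1000000 UMIs for each such sum (counts per 1000000, CPM), and compared between groups with edgeR at a threshold of 0.05, after the Benjamini-Hochberg adjustment of p over the genes that entered the fit of a class. A log2 fold change (log2FC) is given with its standard error. It comes from the fit, which scales libraries by TMM factors, so it can differ from the ratio of the CPM values printed beside it. For *Pdgfd* in LOH in UUO the fit gave -0.62 and mean CPM -0.35, and for *Pdgfb* in DT in UIR 1.36 and 2.07. The sign was the same for all called pairs. Of the 54 pairs of member and class, 34 had enough counts to be tested and 20 did not. Against control, 9 pairs were higher and 6 lower in UIR, where 8% of the 91214 gene and class pairs tested were called higher and 6.81% lower. In UUO 11 pairs were higher and 6 lower, against 10.2% and 9.39% of all pairs. Some pairs called higher had few control UMIs. *Pdgfb* had 6, 7 and 7 in LOH, DT and CD-P, and *Pdgfc* had 3 in CD-I and 1 in macrophages. The count filter can pass such pairs through the injured libraries, and they could hardly be called lower. The counts are therefore a description and no test of the members. Between the injuries 2 pairs were higher in UUO than in UIR and 0 lower, against 0.965% and 1.16% of all pairs. DESeq2 called 1 pair higher and 0 lower in that contrast, and at an unadjusted p under 0.05 edgeR gave 5 and 0. Both injury comparisons use the same 5 control libraries, so their results are not independent of each other. All calls of this fit fell on ligands, 30 of whose pairs were tested, and 0 of the 4 receptor pairs tested were called. Stromal *Pdgfrb* was called lower under several of the alternatives, given below.

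On mm10 with GENCODE M21, *Pdgfa* (ENSMUSG00000025856) lies on chromosome 5 from 138976014 to 138997370 on the minus strand and *Pdgfra* (ENSMUSG00000029231) on the same chromosome from 75152292 to 75198215 on the plus strand. *Pdgfb* (ENSMUSG00000000489) lies on chromosome 15 from 79995874 to 80014977, minus strand. *Pdgfc* (ENSMUSG00000028019) spans chromosome 3 from 81036416 to 81214040 and *Pdgfd* (ENSMUSG00000032006) chromosome 9 from 6168584 to 6378850, both on the plus strand.

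RefSeq start sites on GRCm38.p6 were matched for 4 members, *Pdgfa*, *Pdgfc*, *Pdgfd* and *Pdgfra*, and the 250 bases before each start were read. The windows were searched on both strands for GGGCGG (the core of a GC box), GCGNGGGCG (an EGR-type motif, which can overlap the first), TGANTCA (an AP-1 type motif) and TATAAA, which are held by 32.7%, 4.7%, 6.75% and 12.4% of the 32817 RefSeq windows of that length. The windows of *Pdgfa* and *Pdgfd* are shown because these ligands moved in opposite directions in LOH after injury, *Pdgfa* higher and *Pdgfd* lower. Capitals mark the motif found, GGGCGG in *Pdgfa* and TATAAA in *Pdgfd*.
Pdgfa, chr5:138994282-138994531, minus strand: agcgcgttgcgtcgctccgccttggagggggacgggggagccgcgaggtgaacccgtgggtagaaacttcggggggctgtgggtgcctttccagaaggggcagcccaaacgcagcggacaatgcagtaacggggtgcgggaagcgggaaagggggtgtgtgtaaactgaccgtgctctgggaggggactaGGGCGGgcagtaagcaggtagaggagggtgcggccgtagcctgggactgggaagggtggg
Pdgfd, chr9:6168236-6168485, plus strand: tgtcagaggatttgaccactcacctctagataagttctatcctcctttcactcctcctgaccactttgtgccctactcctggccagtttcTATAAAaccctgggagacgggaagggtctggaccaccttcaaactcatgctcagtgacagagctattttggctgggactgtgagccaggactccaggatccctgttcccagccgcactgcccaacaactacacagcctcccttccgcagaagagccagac
The *Pdgfa* window lies inside the gene as GENCODE draws it, with 86 of its bases in an exon and 164 in an intron, and has a GC content of 66.4%, against a median of 52.4% over all windows. A second *Pdgfa* start had a GC content of 72.4% and 2 GGGCGG matches. The *Pdgfd* window lies upstream of the gene at 53.6% GC. The windows of *Pdgfc* and *Pdgfra*, at 50.8% and 54.4% GC, held 0 matches to the 4 motifs, which says only that these letters were not in these windows.

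*Pdgfa*, the ligand of PDGFRα that epithelia commonly make, was higher after both injuries in every tubular class tested outside PT and frTEC. In LOH the control libraries Ctrl, N1, N2, AN1 and AN2 had 29.9, 23.2, 49.2, 41.7 and 57.9 CPM, UIR, UIR1 and UIR2 had 174, 196 and 220 CPM, and UUO, UUO1 and UUO2 had 196, 201 and 195 CPM. Every injured library was above every control library, with a log2FC of 2.02 ± 0.18 in UIR (edgeR adjusted p = 6.20598e-09) and 2.02 ± 0.18 in UUO (adjusted p = 3.4438e-09). In LOH 16.3% of genes were called higher in UIR and 19.7% in UUO. In DT *Pdgfa* stood at 30.7, 6.68, 31.5, 35.4 and 41.5 CPM in the controls in the same order, at 103, 84.4 and 160 CPM in UIR and at 153, 162 and 163 CPM in UUO. All injured libraries were above the controls, and the log2FC was 1.53 ± 0.22 in UIR (edgeR adjusted p = 3.64006e-06) and 1.93 ± 0.22 in UUO (adjusted p = 3.45674e-08), where 18.2% and 22.8% of DT genes were called higher.

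The collecting duct showed the same direction for *Pdgfa* from lower levels. In CD-P the controls had 8.17, 14.7, 15.5, 27.7 and 32.6 CPM, the UIR libraries 69.0, 35.8 and 53.5 CPM and the UUO libraries 93.5, 114 and 85.5 CPM. All 6 injured libraries lay above the controls, by a log2FC of 1.30 ± 0.30 in UIR (edgeR adjusted p = 0.0038573) and 2.19 ± 0.28 in UUO (adjusted p = 3.83109e-06), against 9.18% and 16.1% of CD-P genes called higher. UUO libraries also lay above UIR libraries here, but the difference of 0.89 ± 0.24 missed the threshold (edgeR adjusted p = 0.0501166). It was called without the count filter (0.89, adjusted p = 0.000172639), with 15% of cells removed as doublets (1.32, adjusted p = 0.00838225), against the N or AN set alone (adjusted p = 0.0420857 and 0.0371059) and without Ctrl, UIR or UUO2 (adjusted p = 0.0282845, 0.0194185 and 0.0290806). In CD-I the controls had 7.58, 16.1, 20.7, 23.2 and 8.09 CPM, UIR libraries 62.4, 42.3 and 57.1 CPM and UUO libraries 64.7, 78.0 and 68.8 CPM. The log2FC was 1.48 ± 0.26 in UIR (edgeR adjusted p = 0.000396637) and 1.82 ± 0.26 in UUO (adjusted p = 1.75963e-05), and 6.82% and 12.1% of CD-I genes were called higher. The calls in LOH and DT, and the UUO calls in CD-P and CD-I, held under every alternative fit of the whole class that could be run. Fits within single clusters, not all of which were called, are given below. The UIR call in CD-P was lost when 15% of cells were removed as doublets (log2FC 0.74, edgeR adjusted p = 0.260984), when cells over 15% mitochondrial UMIs were left out (0.89, adjusted p = 0.15551) and against the AN set alone (0.72, adjusted p = 0.174497). The UIR call in CD-I was lost against Ctrl alone (2.60, adjusted p = 0.0585577).

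**Figure D1:**
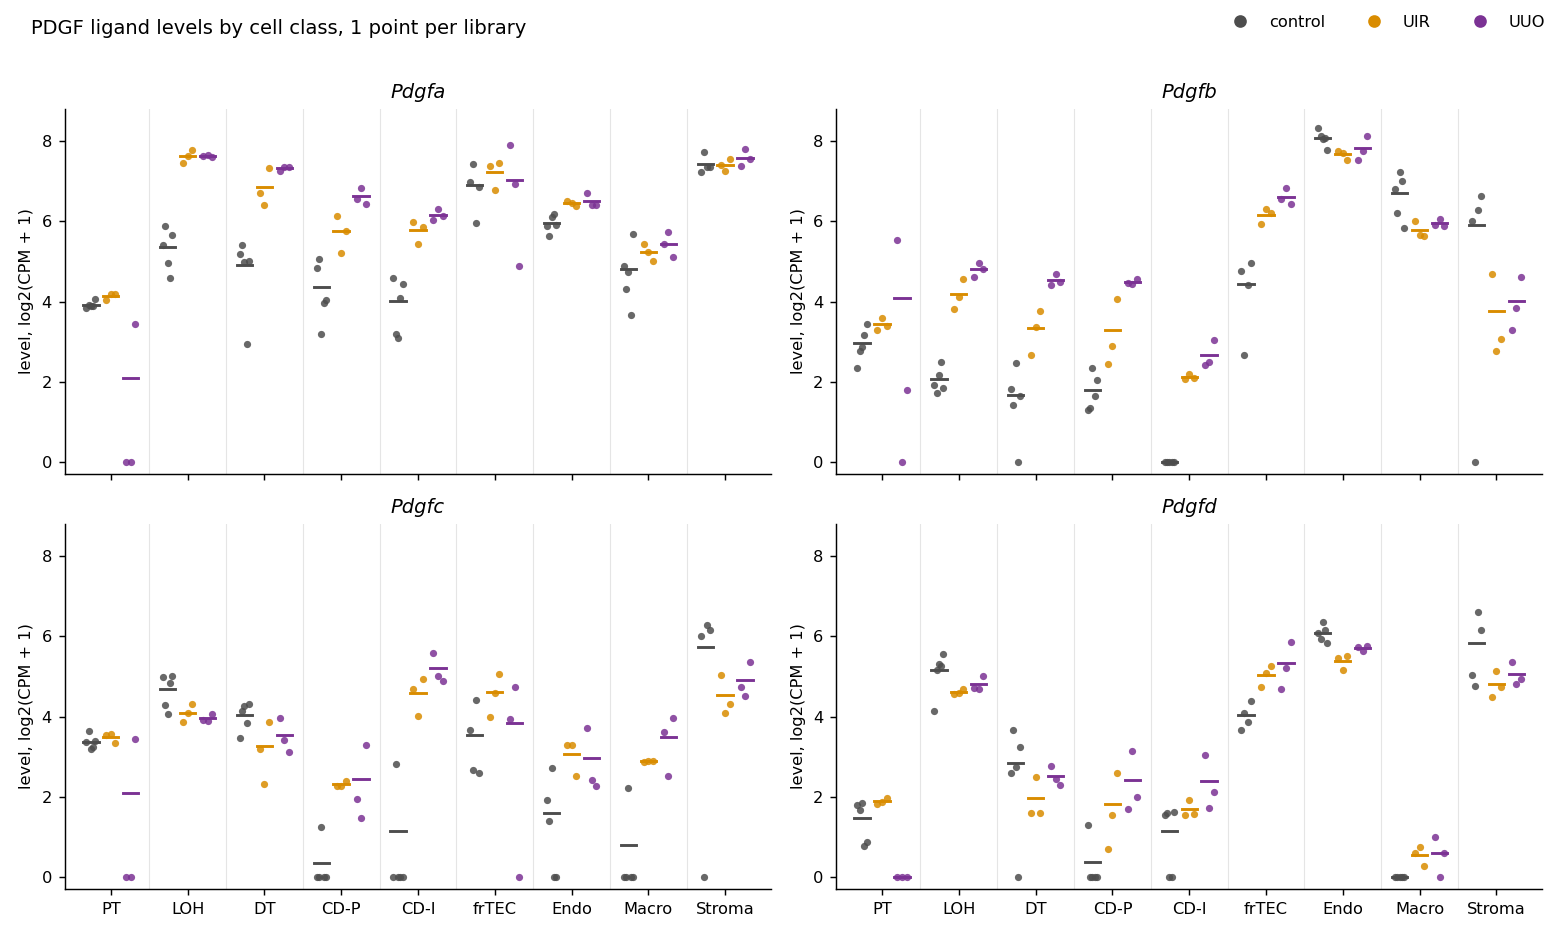
Levels of the 4 PDGF ligands, as log2(CPM + 1), by cell class and group. Each point is 1 library and the horizontal bars mark the logarithm of the group's mean CPM plus 1. *Pdgfa* in LOH sat between 23.2 and 57.9 CPM in controls and between 174 and 220 CPM in injured libraries.

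Endothelial *Pdgfa* changed less. The controls had 67.6, 71.9, 59.6, 58.2 and 49.0 CPM, UIR libraries 90.3, 86.9 and 82.3 CPM and UUO libraries 103, 84.6 and 83.4 CPM. Only the UUO difference passed the test, at a log2FC of 0.46 ± 0.13 (edgeR adjusted p = 0.0244288) where 5.73% of endothelial genes were called higher, and the UIR difference was of like size at 0.45 ± 0.13 (adjusted p = 0.105493). With 15% of cells removed as doublets the UIR difference was called (0.54, adjusted p = 0.0418257). The UUO call was lost without AN1, AN2 or UUO (adjusted p 0.0549 to 0.106), after subtraction of free RNA (log2FC 0.41, adjusted p = 0.0652073), with cells over 15% mitochondrial UMIs removed (0.42, adjusted p = 0.068194), and against each single control set (0.35 to 0.61, adjusted p 0.0687465 to 0.381573). In the other classes *Pdgfa* was not called. PT libraries had 13.2 to 15.6 CPM in control, 15.3 to 17.3 CPM in UIR and 0 to 9.88 CPM in UUO, where 79 cells held 4 UMIs. Macrophages had 11.6 to 50.2 CPM in control, 31.4 to 42.2 CPM in UIR and 33.8 to 51.9 CPM in UUO. The frTEC libraries had 61.2 to 172 CPM in control, 109 to 176 CPM in UIR and 28.3 to 238 CPM in UUO. Stroma, the class with the highest control level at 172 ± 26.7 CPM (SD, n = 4), had 152 to 186 CPM in UIR and 165 to 223 CPM in UUO (edgeR adjusted p = 0.641378 and 0.384472).

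The order of *Pdgfa* levels is given over whole stroma in controls, which had too few cells of Fibro 1 and Fibro 2, and over the stromal subsets after injury, so the orders are not of like classes. In controls stroma was followed by frTEC at 118 ± 45.6 CPM (SD, n = 4), endothelium at 61.3 ± 8.91 CPM and LOH at 40.4 ± 14.1 CPM (both n = 5), and the libraries of each neighbouring pair overlapped. In UIR Fibro 2 had 224 ± 35.3 CPM, LOH 197 ± 23.0 CPM, frTEC 150 ± 36.1 CPM and DT 116 ± 39.4 CPM (n = 3 each), again with overlap between neighbours. With finer clusters (resolution 2) Fibro 2 had 180.02 CPM in UIR and LOH came first. In UUO Fibro 2 had 345 ± 149 CPM, LOH 197 ± 3.23 CPM, Fibro 3 163 ± 39.1 CPM and DT 159 ± 5.68 CPM, and here Fibro 2, LOH and Fibro 3 did not overlap in turn. Fibro 2 at 237 to 515 CPM in UUO was not called against 183 to 245 CPM in UIR (log2FC 0.59 ± 0.25, edgeR adjusted p = 0.558966). An unnamed stromal cluster was higher still, at 435 to 443 CPM in UIR and 442 to 579 CPM in UUO. These orders are descriptions with no test.

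Different clusters held most of the tubular classes in control and injured kidneys. In LOH 97.38% of control cells fell in cluster 10, against 5.704% in UIR and 0.7944% in UUO, and clusters 0, 2 and 3 held most injured cells. *Pdgfa* in cluster 10 stood at 23.2 to 43.1 CPM in controls and up to 77.2 CPM in UIR and was not called (log2FC -0.25 ± 0.48, edgeR adjusted p = 0.908609), in a comparison where 0.997% of genes were called. In the clusters of injured cells it stood at 169 to 214 CPM in UIR and 168 to 205 CPM in UUO (cluster 0), at 212 to 260 and 208 to 214 CPM (cluster 2) and at 95.7 to 144 and 87.5 to 133 CPM (cluster 3). Clusters 0 and 3 held 2.247% and 0.3745% of control LOH cells, so the higher level was found in clusters with few control cells. DT cluster 4, with 0.2237% of control, 73.88% of UIR and 95.2% of UUO DT cells, had 89.3 to 167 CPM in UIR and 153 to 168 CPM in UUO, whereas clusters 11 and 14, which held almost all control cells, had 0 to 41.8 CPM in controls and 27.5 to 34.7 CPM in UIR. CD-P followed suit, with 8.31 to 31.5 CPM in control and 11.1 to 12.4 CPM in UIR libraries in cluster 5 and 66.5 to 112 CPM in injured libraries in cluster 9, where 0.6993% of control CD-P cells lay. In CD-I cluster 8, which held 20.54% of the controls' CD-I cells and 45.97% and 78.5% of those of UIR and UUO, the difference was called within 1 cluster, at a log2FC of 1.56 ± 0.34 in UIR (edgeR adjusted p = 0.0128248) and 1.72 ± 0.34 in UUO (adjusted p = 0.00257824), against 5.08% and 11% of genes called there. In CD-I cluster 6 it was not called (1.02 and 1.08, adjusted p = 0.367151 and 0.598256), where 3.6% and 4.73% of genes were.

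**Figure D2:**
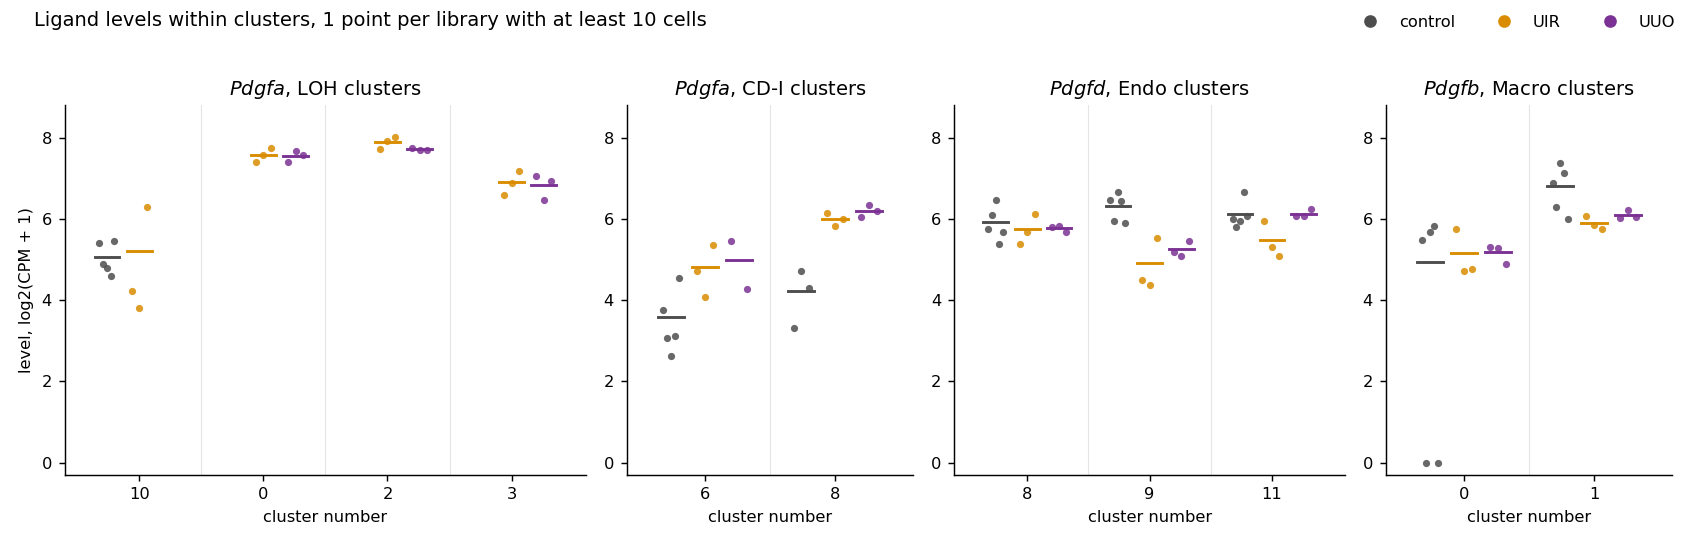
Ligand levels within single clusters, as log2(CPM + 1), for *Pdgfa* in LOH and CD-I, *Pdgfd* in endothelium and *Pdgfb* in macrophages. Each point is a library with at least 10 cells in the cluster, and horizontal bars mark the group mean. *Pdgfa* in LOH clusters 0 and 2 sat between 168 and 260 CPM in injured libraries, above cluster 10, whose highest library had 77.2 CPM.

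*Pdgfb*, the ligand that binds both receptors and that endothelium uses to recruit pericytes, was higher after both injuries in LOH, DT, CD-P and frTEC and lower in macrophages and stroma. In PT it was not called, at 4.06 to 9.93 CPM in control, 8.74 to 11.02 CPM in UIR and 0 to 45.7 CPM in UUO (log2FC 0.59 and -0.76, edgeR adjusted p = 0.11194 and 0.794297). The UIR difference in PT was called higher without the count filter (0.57, adjusted p = 0.0457296) and at resolution 2 (0.79, adjusted p = 0.039026). It was also called against the AN set alone (0.97, adjusted p = 0.00496569) and without N2 (0.76, adjusted p = 0.0194822). In LOH the controls had 3.52, 4.64, 2.59, 2.78 and 2.31 CPM (1 or 2 UMIs each), UIR libraries 13.1, 16.4 and 22.6 CPM and UUO libraries 23.4, 30.3 and 27.1 CPM. No injured library reached down to the controls, and the log2FC was 2.28 ± 0.45 in UIR (edgeR adjusted p = 0.000313679) and 2.89 ± 0.42 in UUO (adjusted p = 5.87445e-06). Against Ctrl or the N set alone the UIR estimates were 2.16 and 2.202 (adjusted p = 0.12056 and 0.071146). In frTEC, the tubule class with the highest *Pdgfb*, the controls Ctrl, N1, N2 and AN2 had 5.38, 20.4, 29.96 and 26.2 CPM, UIR libraries 59.9, 78.1 and 72.9 CPM and UUO libraries 92.8, 114 and 85.0 CPM. The log2FC was 1.71 ± 0.33 in UIR (edgeR adjusted p = 0.0102922) and 2.19 ± 0.34 in UUO (adjusted p = 0.00281469), in a class where only 2.18% and 2.74% of genes were called higher. Both calls were lost when 15% of cells were removed as doublets (1.48 and 1.16, adjusted p = 0.572927 and 0.74009), the UIR call with at least 20 cells per library (1.33, adjusted p = 0.099869), and against single control sets none was made, at 1.40 to 3.75 in UIR and 1.88 to 4.21 in UUO (adjusted p 0.0682762 to 0.22376). Control and injured frTEC cells lay in different clusters, with 52.88% of the controls' frTEC cells in cluster 18, against 11.68% in UIR and 8.333% in UUO. That cluster alone could be compared with control, at 0 to 9.61 CPM in control and 22.8 to 92.9 CPM in UIR, and was not called (3.11 ± 1.00045, edgeR adjusted p = 0.110227), where 2.83% of genes were. Summed Fibro 2 markers in frTEC libraries were at most 340 CPM in control, 2359 CPM in UIR and 2742 CPM in UUO, and their part in the *Pdgfb* values was not tested. Of the clusters without enough control cells, cluster 13 had 120 to 151 CPM in UIR and 170 to 226 CPM in UUO, cluster 7 had 47.6 to 71.9 and 52.1 to 85.4 CPM, and cluster 16 had 14.7 to 32.6 and 24.9 to 51.5 CPM. The leading genes differed, with *Fst*, *Lypd2* and *Bst1* in cluster 18 and *Uncx*, *Slc14a2* and *Bst1* in cluster 16. Cluster 7 was led by *Ubd*, *Havcr1* and *C3* and cluster 13 by *Wnt16*, *Ankrd1* and *Tnc*. The frTEC calls thus compare pools of unlike clusters and by themselves cannot show whether *Pdgfb* changed within 1 cell type. The part of cluster makeup in them was not tested.

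In DT and CD-P *Pdgfb* also differed between the injuries. DT controls had 4.56, 0, 2.10, 2.53 and 1.66 CPM (0 to 4 UMIs each), UIR libraries 5.31, 9.31 and 12.6 CPM and UUO libraries 20.3, 24.8 and 21.5 CPM. The 3 groups did not overlap. UUO was above UIR by a log2FC of 1.26 ± 0.28 (edgeR adjusted p = 0.00386578), where 3.87% of DT genes were called higher in UUO, and above control by 2.63 ± 0.45 (adjusted p = 2.09304e-05). The difference between injuries was as large within DT cluster 4 alone (1.24 ± 0.26, edgeR adjusted p = 0.01098, with 5.2% of genes called) and lost its call without the UIR library (0.96, adjusted p = 0.0526). The difference between UIR and control was smaller, at 1.36 ± 0.52 (edgeR adjusted p = 0.0425956), and lost its call without any 1 of 8 libraries, namely N1, N2, AN1, AN2, UIR1, UIR2, UUO1 or UUO2 (adjusted p 0.0502 to 0.167). It was also lost against each single control set, at 0.62 for Ctrl (adjusted p = 0.609163) and 2.35 and 1.75 for N and AN (adjusted p = 0.138252 and 0.135132), with DESeq2 (adjusted p = 0.0743125) and with cells over 15% mitochondrial UMIs removed (adjusted p = 0.1201).

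CD-P controls had 4.08, 2.10, 3.098, 1.46 and 1.55 CPM of *Pdgfb* (1 to 3 UMIs each), UIR libraries 4.43, 6.39 and 15.7 CPM and UUO libraries 20.8, 20.7 and 22.6 CPM. UUO lay above control by a log2FC of 2.98 ± 0.47 (edgeR adjusted p = 5.07989e-05). UIR lay above control by 1.70 ± 0.55 (edgeR adjusted p = 0.0357131) and below UUO by 1.28 ± 0.35 (adjusted p = 0.0488077), where 1.35% of CD-P genes were called higher in UUO than in UIR. Both of these calls sat near the threshold: the first was lost without N1, AN1, AN2 or UIR2 (adjusted p 0.0649 to 0.271, with a log2FC of 1.06 without UIR2) and the second without any 1 of 9 libraries, all but Ctrl and UIR2 (adjusted p 0.0586 to 0.232). The first was also lost against each single control set (1.04 for Ctrl, adjusted p = 0.579651, and 1.67 and 2.37 for N and AN, adjusted p = 0.339924 and 0.107803), with DESeq2 (adjusted p = 0.0633871), at resolution 2 (adjusted p = 0.0546363) and with cells over 15% mitochondrial UMIs removed (1.37, adjusted p = 0.264919). After subtraction of free RNA the UIR calls were lost in DT (log2FC 1.21, adjusted p = 0.0966374) and in CD-P (1.604, adjusted p = 0.0616016), as was the CD-P call between the injuries (1.31, adjusted p = 0.0649507), which DESeq2 did not make either (1.29, adjusted p = 0.138087). The CD-P difference between UUO and control was not called against Ctrl alone (2.31, adjusted p = 0.069054). In LOH the difference between injuries was 0.61 ± 0.17 and just missed the threshold (edgeR adjusted p = 0.0505457). It was called without the count filter (0.58, adjusted p = 0.037827), with at least 1000 UMIs per cell (0.61, adjusted p = 0.049559) and with 15% of cells removed as doublets (0.77, adjusted p = 0.0154801). The same held without UIR2 (0.84, adjusted p = 0.0138928) or without UUO (0.69, adjusted p = 0.0420111). In CD-I *Pdgfb* could not be tested: the controls had 0 UMIs, UIR libraries 3.18 to 3.59 CPM and UUO libraries 4.31 to 7.27 CPM, which is at least 2.55-fold and 4.27-fold higher than the 1.33 CPM that 3 UMIs over the control group would give.

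**Figure D3:**
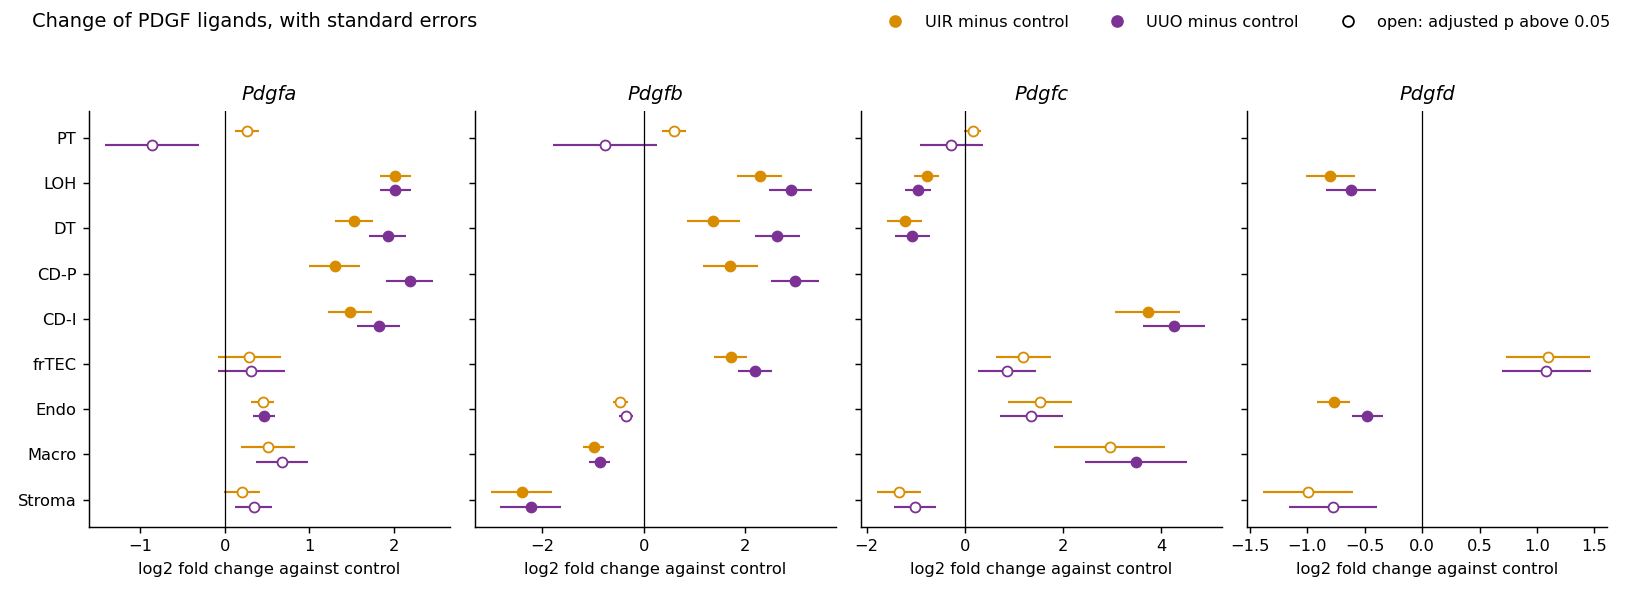
Log2 fold changes of the ligands in UIR and UUO against control by cell class, with standard errors as bars. Filled points passed the edgeR test at an adjusted p of 0.05 and open points did not, and *Pdgfd* in PT is left out. *Pdgfa* and *Pdgfb* lie above 0 in LOH, DT and CD-P, where *Pdgfa* in LOH reached 2.02 in both injuries.

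Endothelium remained the class with the highest *Pdgfb* in every group. The controls had 267, 270, 219, 323 and 277 CPM, UIR libraries 217, 207 and 185 CPM and UUO libraries 184, 214 and 281 CPM, with overlap between the groups. Neither difference passed the test (log2FC -0.46 ± 0.15 and -0.35 ± 0.15, edgeR adjusted p = 0.13562 and 0.135692). In endothelial cluster 9 *Pdgfb* fell in UIR by 1.03 ± 0.24 on the log2 scale (edgeR adjusted p = 0.00601401, with 4.48% of genes called there), and in cluster 11 it fell in UUO by 0.56 ± 0.16 (adjusted p = 0.0406045, with 5.13% called). In controls endothelium, at 271 ± 36.8 CPM (SD, n = 5), was followed by macrophages at 103 ± 38.6 CPM (n = 5) and stroma at 59.4 ± 42.0 CPM (n = 4). In injured kidneys frTEC had 70.3 ± 9.36 CPM in UIR and 97.2 ± 14.8 CPM in UUO (n = 3 each). In UIR it overlapped macrophages and lay below the 80.2 CPM of the 1 Fibro 3 library, and in UUO it overlapped Fibro 3 at 42.8 to 94.8 CPM.

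Macrophage *Pdgfb* was 149, 128, 55.8, 110 and 72.5 CPM in controls, 63.1, 49.5 and 48.9 CPM in UIR and 58.9, 65.6 and 57.8 CPM in UUO. The control library N2 overlapped the injured ones, and the log2FC was -0.98 ± 0.21 in UIR (edgeR adjusted p = 0.00480311) and -0.87 ± 0.20 in UUO (adjusted p = 0.0060166), where 2.64% and 5.24% of macrophage genes were called lower. The makeup of the class differed, with 67% of control but 35.82% of UIR and 33.93% of UUO macrophages in cluster 1 and most of the rest in cluster 0. *Pdgfb* fell within cluster 1 (log2FC -1.0003 ± 0.20 and -0.85 ± 0.19, edgeR adjusted p = 0.00247001 and 0.0049309, with 7.02% and 10.4% of genes called). Within cluster 0 its estimates were of opposite sign and not called (0.21 ± 0.71 and 0.26 ± 0.70, adjusted p = 0.909876 and 0.854699, with 2.12% and 9.52% called). Against the controls of a single set the estimates stayed negative, from -1.32 to -0.76 in UIR and from -1.20 to -0.64 in UUO, and none of the 6 was called (adjusted p 0.0787421 to 0.224425).

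In stroma the controls Ctrl, N1, N2 and AN1 had 0, 76.6, 97.4 and 63.3 CPM of *Pdgfb*, UIR libraries 24.9, 5.78 and 7.38 CPM and UUO libraries 8.75, 13.2 and 23.4 CPM. The log2FC was -2.40 ± 0.60 in UIR (edgeR adjusted p = 0.0171708) and -2.23 ± 0.59 in UUO (adjusted p = 0.028183), where 3.52% and 2.62% of stromal genes were called lower. The Ctrl library, at 0, held 13 cells and 37980 UMIs, in which 3 UMIs would exceed every injured level, so it has no place in the order. The UIR call was lost without N1, N2, AN1, UIR1 or UIR2 (adjusted p 0.0544 to 0.161) and the UUO call without N1, N2, AN1, UUO or UUO1 (adjusted p 0.0628 to 0.213). Against the AN set alone both were lost (-2.16 and -1.98, adjusted p = 0.342806 and 0.388472), and the UUO call was lost with 15% of cells removed as doublets (-1.74, adjusted p = 0.122535). Control stroma was mostly Fibro 3, with 83 of 107 cells, whereas 63 of 824 UIR and 157 of 780 UUO stromal cells were Fibro 3. The controls were not alike in this. Ctrl held 9 Fibro 2 cells and 1 Fibro 3 cell among its 13, whereas Fibro 3 made up 19 of 23 cells in N1, 37 of 40 in N2 and 20 of 22 in AN1. Within Fibro 3 *Pdgfb* stood at 64.1 to 101 CPM in control and 42.8 to 94.8 CPM in UUO and was not called (-0.40 ± 0.35, edgeR adjusted p = 0.685104), and Fibro 1 had 0 to 4.05 CPM.

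*Pdgfc*, a ligand that PDGFRα binds after its CUB domain is cut off, was called higher in intercalated cells after both injuries and in macrophages in UUO only. It was called lower in LOH and DT after both injuries. In CD-I and macrophages the gene passed the count filter through the injured libraries, as the controls held few UMIs. In CD-I the control group held 3 UMIs, all in AN2 (6.07 CPM), whereas UIR libraries had 24.8, 15.2 and 29.5 CPM and UUO libraries 47.4, 31.4 and 28.4 CPM. Every injured library was above AN2, and the ratio of summed levels to control was 16.4 in UIR (95% counting interval 5.47 to 80.5) and 25.0 in UUO (8.35 to 123). The fitted log2FC was 3.72 ± 0.66 (edgeR adjusted p = 0.000513862) and 4.25 ± 0.64 (adjusted p = 3.3056e-05). Against single control sets the UIR call was lost for Ctrl and for AN (adjusted p = 0.15982 and 0.0596953) and the UUO call for Ctrl (adjusted p = 0.0597511). Within CD-I cluster 8 the UUO difference was called (2.66 ± 0.74, adjusted p = 0.024364) and the UIR difference was not (2.33 ± 0.76, adjusted p = 0.0916158).

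In macrophages *Pdgfc* had 1 UMI in the controls, in Ctrl (3.64 CPM), and stood at 6.26, 6.46 and 6.36 CPM in UIR and at 11.3, 4.69 and 14.5 CPM in UUO. The ratio to control was 12.3 in UUO (95% counting interval 2.17 to 488) and 8.14 in UIR (1.42 to 326). Only the UUO difference was called (log2FC 3.49 ± 1.04, edgeR adjusted p = 0.0328498, where 5.42% of macrophage genes were called higher), and UIR had 2.95 ± 1.13 (adjusted p = 0.134834). The call was lost without N1, N2, AN1 or AN2 (adjusted p 0.0710 to 0.0967), with cells over 15% mitochondrial UMIs removed (2.98, adjusted p = 0.112701) and against each single control set, with 1.52 for Ctrl (adjusted p = 0.691438) and no bound from N or AN, whose macrophages held 0 UMIs (adjusted p = 0.253438 and 0.185549). In CD-P, where the controls held 1 UMI and no test was made, the ratio was 11.3 in UIR (1.79 to 472) and 9.73 in UUO (1.55 to 404). Endothelial *Pdgfc* was not called (1.54 and 1.35, edgeR adjusted p = 0.32177 and 0.208829), but within endothelial cluster 11 it rose in both injuries (3.17 ± 0.77 and 3.06 ± 0.79, adjusted p = 0.0290575 and 0.0200903), where 1.59% of genes in UIR and 5.13% in UUO were called.

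LOH *Pdgfc* was 15.8, 27.8, 31.1, 30.6 and 18.5 CPM in controls, 13.6, 15.9 and 18.9 CPM in UIR and 14.2, 13.7 and 15.6 CPM in UUO. The UUO libraries lay below all controls, whereas UIR libraries overlapped them. The log2FC was -0.78 ± 0.25 in UIR (edgeR adjusted p = 0.0215263) and -0.95 ± 0.26 in UUO (adjusted p = 0.00604403), in a class with 14.2% and 16.8% of genes called lower. The UIR call was lost without N2 or AN1 (adjusted p 0.0867 to 0.0959), and with cells over 15% mitochondrial UMIs removed the estimates were -0.23 and -0.41 (adjusted p = 0.839511 and 0.683148). DT *Pdgfc* was 18.2, 13.4, 18.9, 10.1 and 16.6 CPM in controls, 8.17, 3.99 and 13.6 CPM in UIR and 14.5, 9.60 and 7.73 CPM in UUO, with overlap in both comparisons. Its mean CPM gave log2 ratios to control of -0.84 in UIR and -0.54 in UUO. The fitted log2FC was -1.22 ± 0.36 in UIR (edgeR adjusted p = 0.0081955) and -1.07 ± 0.35 in UUO (adjusted p = 0.0148801), where 17.9% and 21.4% of DT genes were called lower. With finer clusters these became -0.55 and -0.24 (adjusted p = 0.268707 and 0.662718), and the UUO call was lost without Ctrl, UUO1 or UUO2 (adjusted p 0.0562 to 0.0578). Against single control sets DT *Pdgfc* gave -1.37 to -1.01 in UIR and -1.23 to -0.86 in UUO, and neither the N nor the AN set gave a call (edgeR adjusted p 0.136288 to 0.246254). The DT call in UIR was also lost with cells over 15% mitochondrial UMIs removed (-1.12, adjusted p = 0.06642). In LOH the estimates were -0.12 and -0.30 against Ctrl alone. Against the AN set alone they were -0.81 and -0.99, and neither was called (adjusted p = 0.148117 and 0.0675239). In Fibro 3 *Pdgfc* was at 64.1 to 78.5 CPM in control and 49.3 to 81.7 CPM in UUO, and PT had 8.14 to 11.4 CPM in control and 9.14 to 10.9 CPM in UIR. In stroma it was at 0, 76.6, 70.4 and 63.3 CPM in the controls Ctrl, N1, N2 and AN1, 32.0, 16.1 and 18.97 CPM in UIR and 25.8, 21.8 and 39.8 CPM in UUO, and was not called (-1.34 ± 0.44 and -1.01 ± 0.43, edgeR adjusted p = 0.0656141 and 0.169551). It was called lower in UIR with DESeq2 (-1.38, adjusted p = 0.0221054), without the count filter (-1.29, adjusted p = 0.0132074), with at least 1000 UMIs per cell (-1.4976, adjusted p = 0.0140669), against the N set alone (-1.58, adjusted p = 0.040628) and without the UIR library (-1.63, adjusted p = 0.0335673). Without Ctrl, which had 13 cells and 0 UMIs, both injuries were called lower (-1.52 and -1.18, adjusted p = 0.0118388 and 0.0443669). Of those 13 cells 9 were Fibro 2, and the controls left were mostly Fibro 3. In frTEC it was at 4.99 to 20.4 CPM in control, 14.98 to 32.1 CPM in UIR and 0 to 25.8 CPM in UUO and was not called (1.19 and 0.86, edgeR adjusted p = 0.282462 and 0.495248).

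*Pdgfd*, a ligand of PDGFRβ that is also cut before it binds, was lower after injury in endothelium and LOH. Endothelial controls had 81.2, 70.5, 56.4, 66.5 and 60.4 CPM, UIR libraries 43.2, 34.5 and 44.7 CPM and UUO libraries 52.4, 48.8 and 53.6 CPM. The injured libraries were all below the controls, with a log2FC of -0.77 ± 0.14 in UIR (edgeR adjusted p = 0.00580076) and -0.48 ± 0.14 in UUO (adjusted p = 0.0250131), where 0.868% and 6.42% of endothelial genes were called lower. Against single control sets the estimates were -0.94 to -0.70 in UIR and -0.65 to -0.41 in UUO and none of the 6 was called (edgeR adjusted p 0.125883 to 0.264665). The estimates ranged in size between endothelial clusters. In cluster 9 *Pdgfd* was at 59.2 to 101 CPM in control, 19.9 to 45.6 CPM in UIR and 33.0 to 42.8 CPM in UUO, and fell by 1.56 ± 0.29 (edgeR adjusted p = 0.000602032) and 1.31 ± 0.27 (adjusted p = 0.000558549), with 4.48% and 12.3% of genes called there. In cluster 8 it was not called (-0.25 and -0.22, edgeR adjusted p = 0.820077 and 0.662009), with 2.07% and 8.69% called, and the difference between these clusters was not tested. *Pdgfa* rose in cluster 9 in UUO (1.25 ± 0.27, adjusted p = 0.000799798). Cluster 9 held 30.47% of control, 26% of UIR and 25.12% of UUO endothelial cells. The UUO call over all endothelium was lost without Ctrl, N1 or UUO1 (adjusted p 0.0528 to 0.113).

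LOH *Pdgfd* was 38.7, 37.1, 46.6, 16.7 and 34.7 CPM in controls, 22.7, 23.2 and 24.8 CPM in UIR and 25.4, 25.0 and 31.2 CPM in UUO. AN1 lay below all injured libraries and the other 4 controls above them. The log2FC was -0.80 ± 0.22 in UIR (edgeR adjusted p = 0.00585509) and -0.62 ± 0.22 in UUO (adjusted p = 0.0286244). The UUO call was lost without Ctrl, N2, AN2 or UUO1 (adjusted p 0.0562 to 0.126), and both were lost when cells over 15% mitochondrial UMIs were removed (-0.40 and -0.21, adjusted p = 0.597441 and 0.792893). Against the AN set, which holds AN1, they were -0.40 and -0.22 (adjusted p = 0.465988 and 0.69648). Against Ctrl, a single library, the LOH estimates were -0.86 and -0.69. The UUO call was also lost without the count filter (-0.58, edgeR adjusted p = 0.0552805). In Fibro 1 *Pdgfd* was 5.17, 5.57 and 8.10 CPM in UIR and 58.8, 37.1 and 28.3 CPM in UUO, groups that did not overlap. UUO was higher by 2.83 ± 0.51 (edgeR adjusted p = 0.00691342), where 1.64% of Fibro 1 genes were called higher in UUO, and the call was lost without UIR or UIR1 (adjusted p 0.0748 to 0.0819). Of the Fibro 1 cells 97.53% in UIR and 58.22% in UUO lay in cluster 5, and 2.469% and 41.78% in cluster 8. In cluster 5 *Pdgfd* was at 0, 2.83 and 8.10 CPM in UIR and at 61.96 CPM in the 1 UUO library with enough cells (UUO), a difference that was not tested, and in cluster 8 it was at 60.1 and 28.5 CPM in UUO1 and UUO2. Fibro 1 held 81 UIR and 146 UUO cells and 2 control cells, so it was not compared with control. The other tubular classes had little *Pdgfd*. CD-P held 1 UMI in control, 11 in UIR and 29 in UUO, a ratio of 6.93 (95% counting interval 1.01 to 298) and 14.8 (2.46 to 607). CD-I held 3, 13 and 13 UMIs (ratios 1.74, with 0.479 to 9.54, and 2.78, with 0.763 to 15.2). DT, which was not tested, had 0 to 11.6 CPM in control, 2.02 to 4.65 CPM in UIR and 3.86 to 5.798 CPM in UUO. PT had 0.709 to 2.597 CPM in control, 2.497 to 2.93 CPM in UIR (0.56 ± 0.40, edgeR adjusted p = 0.45582) and 0 UMIs in UUO, and macrophages held 0, 5 and 6 UMIs in the 3 groups. The frTEC estimates of 1.10 ± 0.36 and 1.08 ± 0.39 were not called (edgeR adjusted p = 0.113387 and 0.134662), nor were those of Fibro 3 in UUO (-1.23 ± 0.48, adjusted p = 0.209246) or stroma (-0.996 and -0.78, adjusted p = 0.123643 and 0.24424).

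The receptors were found mostly in stroma. *Pdgfra*, which marks interstitial fibroblasts, stood in stroma at 369, 240, 222 and 372 CPM in the controls Ctrl, N1, N2 and AN1, at 297, 297 and 256 CPM in UIR and at 392, 278 and 222 CPM in UUO. The groups overlapped, and the log2FC was 0.16 ± 0.25 in UIR and 0.17 ± 0.25 in UUO (edgeR adjusted p = 0.78845 and 0.766637). By subset, Fibro 1 had 457, 459 and 442 CPM in UIR and 556, 478 and 462 CPM in UUO (0.16 ± 0.21, edgeR adjusted p = 0.835906). Fibro 3 had 245, 230 and 377 CPM in N1, N2 and AN1, 410 CPM in the 1 UIR library with enough cells, and 335, 276 and 297 CPM in UUO. Fibro 2 was the exception at 0 to 10.1 CPM in UIR and 2.39 to 9.90 CPM in UUO. Stromal clusters 0, 3 and 6 were left unnamed and lie outside these subsets. They held 115, 144 and 78 of 824 UIR and 227, 71 and 54 of 780 UUO stromal cells.

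*Pdgfrb* (ENSMUSG00000024620) lies on chromosome 18 from 61045150 to 61085061 on the plus strand. This receptor of pericytes and mesangial cells as well as fibroblasts was at 211, 958, 823 and 1013 CPM in control stroma, 432, 366 and 406 CPM in UIR and 453, 540 and 590 CPM in UUO. Ctrl lay below all injured libraries and the other 3 controls above them, and neither difference was called (log2FC -0.79 ± 0.34 and -0.45 ± 0.34, edgeR adjusted p = 0.172207 and 0.495753). The unadjusted p was 0.03503 in UIR. Ctrl stroma held 9 Fibro 2 cells and 1 Fibro 3 cell among 13, whereas N1, N2 and AN1 were mostly Fibro 3. Without Ctrl, against controls made up mostly of Fibro 3, both differences were called lower. The values were -1.06 in UIR and -0.71 in UUO (edgeR adjusted p = 0.000356625 and 0.00858729). Both were also called lower with cells over 15% mitochondrial UMIs removed (-0.95 and -0.63, adjusted p = 0.00276686 and 0.0436102). The same held with at least 1000 UMIs per cell (-1.04 and -0.66, adjusted p = 0.000476609 and 0.0145108) and against the N set alone (-0.99 and -0.64, adjusted p = 0.00376903 and 0.0451103). Against AN1 alone the UIR estimate was -1.13. Subset makeup moved with these values: *Pdgfrb* stood in Fibro 3 at 972, 841 and 1018 CPM in control, 1115 CPM in UIR and 1448, 1030 and 1572 CPM in UUO, but in Fibro 1 at 245 to 288 CPM in UIR and 311 to 448 CPM in UUO and in Fibro 2 at 224 to 243 and 172 to 294 CPM. Within Fibro 3 UUO against control gave 0.42 ± 0.19 (edgeR adjusted p = 0.333081). UUO against UIR gave 0.44 ± 0.23 in Fibro 1 (adjusted p = 0.465619) and -0.06 ± 0.21 in Fibro 2 (adjusted p = 0.971792).

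**Figure D4:**
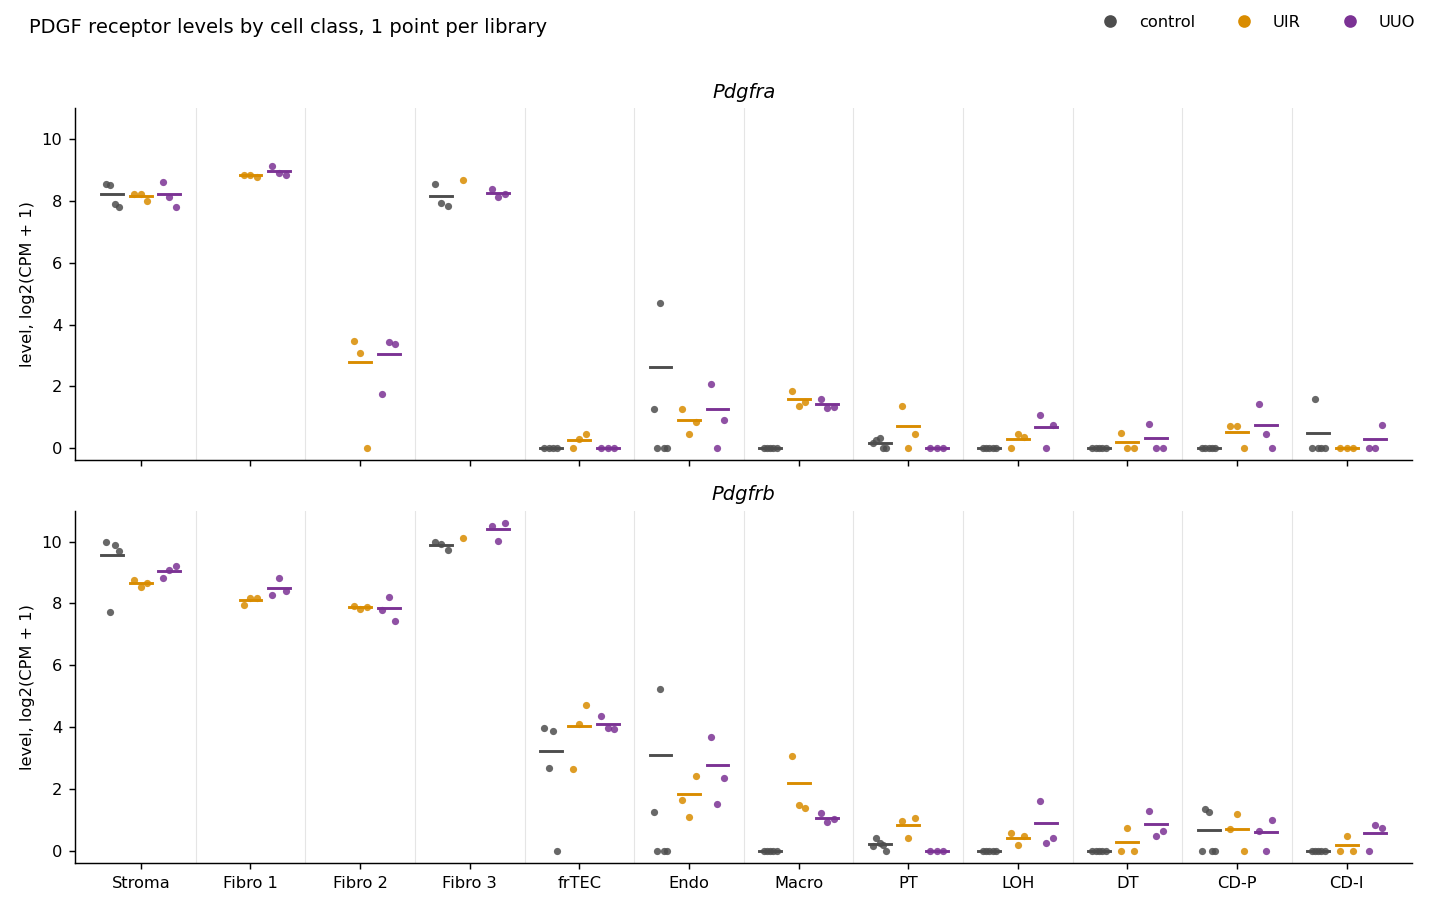
Levels of *Pdgfra* and *Pdgfrb*, as log2(CPM + 1), by cell class and stromal subset. Each point is 1 library and horizontal bars mark the logarithm of the group's mean CPM plus 1. Both receptors were high in stroma, and Fibro 2 had *Pdgfrb* at 172 to 294 CPM with *Pdgfra* at 0 to 10.1 CPM.

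Counted by cell, both receptors were detected together in 63.86% of control and 60.51% of UUO Fibro 3 cells. In Fibro 1 cells of cluster 5, whose median depth of 12040 UMIs in UIR exceeded the 5023 of control Fibro 3 cells, the shares were 83.54% in UIR and 90.59% in UUO. Thinned to 1000 UMIs per cell the shares with both fell to 14.46% and 17.65% in Fibro 3 and to 8.974% and 8.235% in Fibro 1. The UIR Fibro 3 cells had 61.9% with both, and 27.87% after thinning, and the other Fibro 1 cluster (cluster 8, UUO) had 63.93% and 5.556%. In Fibro 2 cells of cluster 2 *Pdgfra* was seen in 0% of UIR and 2.439% of UUO cells and *Pdgfrb* in 83.83% and 81.71%. Of the unnamed stromal clusters, cluster 3 had *Pdgfra* in 97.92% of UIR and 92.96% of UUO cells (50% and 38.03% after thinning). Cluster 6 had *Pdgfrb* in 94.87% and 94.44% (69.23% and 55.56% after thinning) and *Pdgfra* in 0% and 1.852%. In cluster 0, at medians of 817 and 773 UMIs, *Pdgfra* was seen in 12.17% and 14.98% and *Pdgfrb* in 15.65% and 11.89%. For comparison, in cell types not known for the receptor, *Pdgfrb* was seen in 0.5559% of UIR and 1.583% of UUO endothelial cells (median 4008 and 4493 UMIs), in 0.5498% and 1.092% of LOH cells and in 0.6688% and 0.3658% of macrophages. In controls *Pdgfrb* was seen in 0% of LOH cells and macrophages and in 0.2915% of endothelial cells.

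In the compared classes outside stroma the receptor values were low. An unnamed cluster of the cells re-clustered as tubule outside PT (cluster 19, 71 UIR, 37 UUO and 0 control cells) had *Pdgfrb* at 531 CPM in UIR and 481 CPM in UUO. Its best score on the naming markers was for Fibro 2 (0.391), with frTEC second (0.337). *Pdgfra* and *Pdgfrb* were each at most 2.02 CPM in PT, LOH, DT, CD-P and CD-I libraries, and at most 2.61 and 7.30 CPM in macrophage libraries. In control endothelium 31 of 32 *Pdgfra* UMIs and 46 of 47 *Pdgfrb* UMIs came from the Ctrl library, in which Fibro 3 markers summed to 151 CPM, against 1.44 to 4.15 CPM in the other controls. Without Ctrl the endothelial mean was 0.346 ± 0.692 CPM (SD, n = 4) for each receptor. Each receptor was seen in 0.2915% of the 686 control endothelial cells, and both in 0.1458%, so these UMIs came from very few cells. *Pdgfrb* was at 0 to 14.6 CPM in control frTEC, 5.24 to 25.0 CPM in UIR and 14.2 to 19.6 CPM in UUO and was not called (edgeR adjusted p = 0.592302 and 0.591834). Within frTEC it was seen in 32.97% of UIR and 40.3% of UUO cells of cluster 13 (6.486% and 6.061% after thinning), and in 0.3466% and 1.156% of the other frTEC cells. Fibro 2 markers summed to as much as 2359 CPM in UIR and 2742 CPM in UUO frTEC libraries, against at most 340 CPM in control, and their part in the *Pdgfrb* values was not tested.

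The UMIs of each gene were also counted by the class that held them. Of *Pdgfa* UMIs in kept cells, PT held 44.52% in control, from 51.84% of the cells. LOH held 50.65% in UIR and 35.04% in UUO, from 8.595% and 7.555% of the cells, against 2.609% of control cells. LOH cells were deep, at medians of 10700 UMIs in UIR and 9889 in UUO, beside library medians of 2586 to 3845 and 3075 to 4057.5. Their share of all UMIs thus exceeded their share of cells. Endothelium held the largest share of *Pdgfb*, at 65.92%, 41.56% and 52.03% in control, UIR and UUO, and the share of macrophages went from 8.318% to 15.06% and 19.51% as their share of cells went from 3.938% to 22.08% and 32.82%. PT held 71.85% of control *Pdgfc* UMIs, whereas LOH held 32.85% in UIR and 23.07% in UUO. The largest share of *Pdgfd* lay in endothelium in control (54.09%) and UUO (45.06%) and in LOH in UIR (41.03%). Stroma held 76.17%, 95.66% and 95.75% of *Pdgfra* and 81.87%, 72.2% and 85.02% of *Pdgfrb* UMIs. These shares follow the numbers and depth of captured cells, which dissociation may affect, and were not tested.

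**Figure D5:**
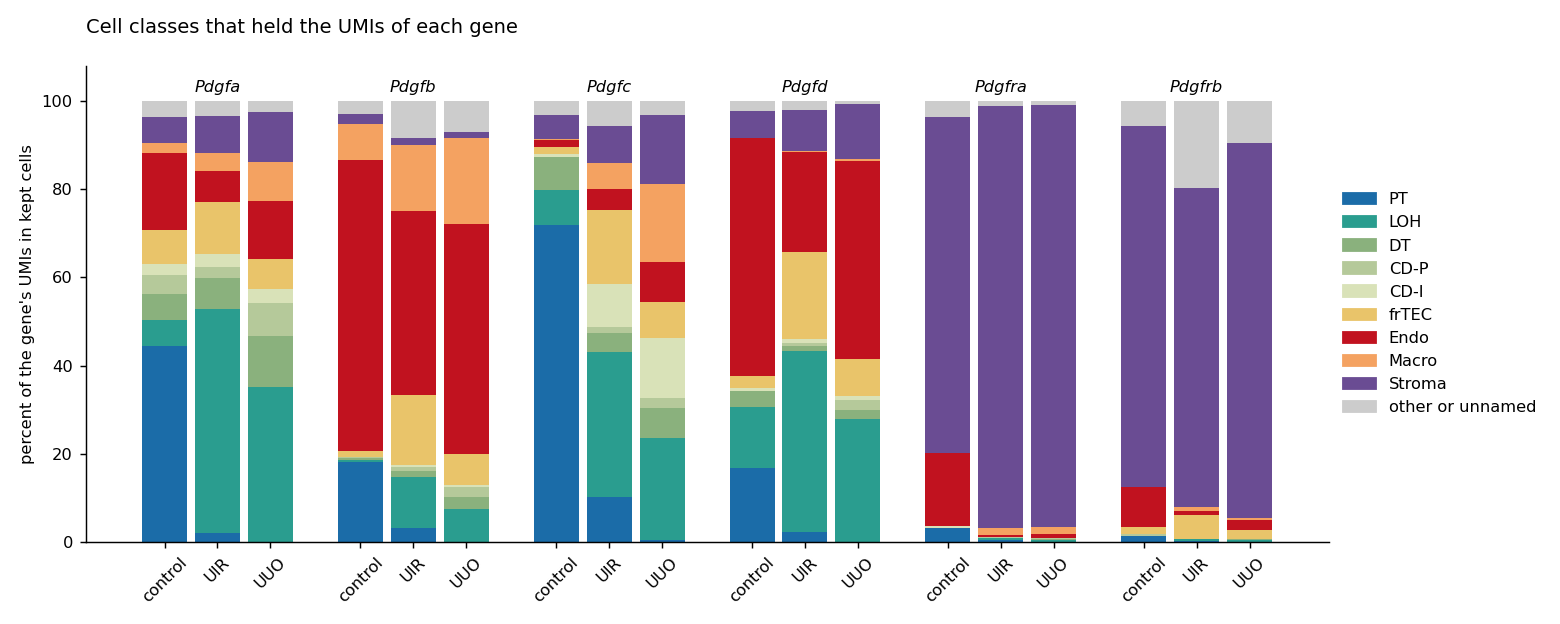
Percent of each gene's UMIs in kept cells by the class that held them, in control, UIR and UUO kidneys, as stacked bars from 0 to 100%. LOH held 50.65% of *Pdgfa* UMIs in UIR and endothelium 65.92% of *Pdgfb* UMIs in control.

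Free RNA, read in droplets without a cell, also held the ligands, and more so after injury. *Pdgfa* was at 3.83 to 14.1 CPM in empty droplets of control, 15.7 to 30.2 CPM of UIR and 33.1 to 61.2 CPM of UUO libraries. *Pdgfb* was at 1.36 to 6.22, 9.97 to 25.2 and 27.5 to 48.8 CPM, close to or above its level in LOH, DT and CD-P cells. *Pdgfrb* was at 1.40 to 3.26, 4.99 to 15.1 and 15.7 to 43.5 CPM and *Pdgfra* at 0.614 to 2.28, 3.13 to 8.91 and 11.16 to 36.6 CPM. *Pdgfc*, at 2.41 to 8.29, 5.14 to 9.15 and 5.09 to 10.98 CPM, and *Pdgfd*, at 1.15 to 5.91, 3.20 to 7.13 and 6.38 to 10.2 CPM, moved less. The estimated share of free RNA in LOH cells was 4.119% to 11.46% in control, 3.625% to 7.87% in UIR and 2.039% to 2.918% in UUO, and in DT cells 5.048% to 17.23%, 3.789% to 7.198% and 1.534% to 2.098%. The summed endothelial markers also moved in the tubule classes, from 2.59 to 9.27 CPM in control LOH to 9.52 to 16.3 CPM in UIR and 13.6 to 21.5 CPM in UUO, against 7379 to 9131 CPM in endothelium itself. In DT they went from 1.14 to 6.65 CPM to 13.96 to 21.7 and 15.5 to 21.7 CPM, and in CD-P from at most 8.40 CPM to 7.85 to 17.9 and 12.8 to 22.5 CPM. The summed macrophage markers in LOH were at most 4.63 CPM in control, 29.5 to 57.7 CPM in UIR and 43.4 to 53.5 CPM in UUO, against 15956 to 20707 CPM in macrophages. The part of these cells' RNA in the tubular *Pdgfb* values was tested only through the subtraction of free RNA given with the DT and CD-P results. In macrophages the free RNA share was 6.832% to 18.5%, 10.1% to 19.25% and 6.294% to 9.429%.

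The genes that process and bind the ligands moved with injury in many classes. *Furin*, *Plat*, *Plau*, *St14*, *Nrp1*, *Lrp1* and *Sparc* gave 54 tests over the 9 classes, of which 22 were higher and 3 lower in UIR, 22 higher and 1 lower in UUO, and 6 higher and 0 lower in UUO than in UIR, beside the 8% higher and 6.81% lower of all pairs in UIR, 10.2% and 9.39% in UUO, and 0.965% and 1.16% between the injuries. Their median log2FC in LOH was 1.17 in UIR and 1.15 in UUO, against 0.06 over all LOH genes in both. *Sparc*, a matrix protein that binds PDGF-B, was at 3.05 CPM in control DT, 21.0 CPM in UIR and 80.4 CPM in UUO, higher by 3.98 ± 0.46 in UUO (edgeR adjusted p = 5.03845e-08) and higher in UUO than in UIR by 1.84 ± 0.28 (adjusted p = 7.8917e-05), in a class with 22.8% and 3.87% of genes called higher. Endothelial *Sparc* went from 1369 to 1690 and 2721 CPM, higher in UUO than in control by 0.90 ± 0.12 (edgeR adjusted p = 4.05152e-05), where 5.73% of genes were called higher. *St14*, the membrane protease matriptase, which can activate PDGF-D, was at 64.8 CPM in control LOH, 174 CPM in UIR and 196 CPM in UUO (1.22 ± 0.17 and 1.39 ± 0.17, adjusted p = 2.99563e-06 and 3.26192e-07), where 16.3% and 19.7% of genes were called higher. In stroma, where 6.96% and 6.35% of genes were called higher and 3.52% and 2.62% lower, *Plat* and *Plau* differed in direction. *Plat*, tissue plasminogen activator, which activates PDGF-C, rose from 41.9 to 141 and 175 CPM (2.15 ± 0.48 and 2.43 ± 0.47, edgeR adjusted p = 0.00949415 and 0.00555299). *Plau*, urokinase, which can activate PDGF-D, fell from 60.8 to 14.6 and 15.96 CPM (-2.23 ± 0.46 and -2.18 ± 0.46, adjusted p = 0.00602825 and 0.00853453). *Nrp1*, a co-receptor that binds PDGFs, was higher in frTEC at 453 CPM in UIR and 352 CPM in UUO against 101 CPM (2.10 ± 0.36 and 1.86 ± 0.37, edgeR adjusted p = 0.00544913 and 0.00977446) and lower in UIR stroma at 789 against 2769 CPM (-1.67 ± 0.47, adjusted p = 0.0304729). In frTEC 2.18% and 2.74% of genes were called higher. The subsets that made up stroma differed between control and injured kidneys, as given above, and their part in these stromal values was not tested. Within Fibro 3, in UUO against control, 0 of the 6 genes tested were called, with *Plat* at 0.66 ± 0.55, *Plau* at -0.93 ± 0.37 and *Nrp1* at -0.06 ± 0.16 (edgeR adjusted p = 0.663324, 0.228795 and 0.908011), where 0.861% of genes were called higher and 1.16% lower.

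The signalling genes gave 138 tests, of which 10 were higher and 5 lower in UIR, 11 higher and 7 lower in UUO, and 0 higher and 1 lower in UUO than in UIR, beside the 8% and 6.81%, 10.2% and 9.39%, and 0.965% and 1.16% of all pairs. *Stat3*, a transcription factor activated by many receptors, rose in LOH from 60.8 to 160 CPM in UIR and 149.7 CPM in UUO (1.17 ± 0.18 and 1.07 ± 0.18, edgeR adjusted p = 1.22454e-05 and 3.52581e-05). It rose in stroma from 72.5 to 154 and 145 CPM (1.21 ± 0.25 and 1.07 ± 0.25, adjusted p = 0.00637021 and 0.0152603). The part of subset makeup in this stromal rise was not tested. Within Fibro 3, in UUO against control, 0 of the 9 signalling genes tested were called, where 0.861% of genes were called higher and 1.16% lower. *Pik3r1*, the regulatory subunit of PI3 kinase, fell in CD-P from 117 to 70.0 and 42.1 CPM (-0.84 and -1.59, edgeR adjusted p = 0.00317703 and 2.87953e-06), where 8.15% and 15.4% of genes were called lower. In DT it went the other way in UIR, from 60.8 to 153 CPM (0.93 ± 0.18, adjusted p = 0.000135778), and at 76.7 CPM in UUO it gave the 1 lower call between the injuries (-1.08 ± 0.17, adjusted p = 9.86153e-05). Of the genes that damp receptor signalling, namely the phosphatases *Ptpn1*, *Ptpn2* and *Ptprj* and the ubiquitin ligases *Cbl* and *Cblb*, 7 of 45 tests were higher in UIR and 8 in UUO, 0 were lower, and 0 of 5 were called in stroma, beside the same shares. Immediate early genes (*Fos*, *Egr1*, *Myc*, *Srf*, *Ier2* and *Junb*), which growth factors and also tissue dissociation induce, gave 13 higher and 2 lower of 48 tests in UIR and 17 and 1 in UUO. *Junb* rose in LOH from 35.7 to 243 and 273 CPM (2.49 ± 0.38 and 2.66 ± 0.38, edgeR adjusted p = 1.78654e-05 and 5.22898e-06) and *Egr1* in DT from 3.69 to 83.3 and 87.3 CPM (4.35 ± 0.72 in UIR, adjusted p = 2.16417e-05). In stroma 0 of 5 immediate early genes were called, where 6.96% and 6.35% of genes were called higher, and their median log2FC was 0.48 in UIR and 0.61 in UUO against 0.15 over all stromal genes in both.

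The genes whose mean levels ran most like each member over 30 class and group points were named from 7764 genes by Pearson's r on log2(CPM + 1), as a description over points that share libraries. Those for *Pdgfa* were *Ncl* (0.899), *Rab11b* (0.896) and *Mfge8* (0.895), for *Pdgfb* *Pomp* (0.823), *Lfng* (0.812) and *Bax* (0.806), for *Pdgfc* *Gyg* (0.772), *Khdrbs3* (0.732) and *Dmpk* (0.712), and for *Pdgfd* *1810011O10Rik* (0.889), *Slco2a1* (0.851) and *Actn4* (0.841). *Pdgfra* ran with *Mrc2* (0.989), *Ntrk2* (0.957) and *Gpr153* (0.955), and *Pdgfrb* with *Cd248* (0.971), *Mir143hg* (0.961) and *Myl9* (0.959). Between members the likeness was 0.873 for the 2 receptors, 0.702 for *Pdgfa* and *Pdgfd*, and -0.032 for *Pdgfb* and *Pdgfra*.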

How the data were processed

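The authors deposited UMI count matrices from Cell Ranger 3.1.0 (per the labels) on mm10, with all barcodes, unfiltered for cells and not corrected for free RNA. All counts were used as deposited, over 28692 genes. Cells were called against empty droplets (at least 500 UMIs, adjusted p of 0.01), and those over 30% mitochondrial UMIs, over 5% haemoglobin UMIs or under 200 genes were removed, as were the 7.5% of droplets most like simulated doublets. Cells were clustered with scanpy 1.11.5 and leidenalg 0.10.2 (resolution 1) and clusters named from fixed markers. Whole-number counts were summed per library and class (at least 10 cells) and tested with edgeR 4.0.16 (R 4.3.3, TMM, filterByExpr, quasi-likelihood, the 3 groups in 1 model). The procedure was tested on simulated data. Tests within single clusters were chosen after seeing the data. Intervals on ratios (95%) and the floor of 3 UMIs cover counting error only. Counts from 3′ ends were not scaled by length. Low-count members rest on few UMIs, and the filter on low counts passes a member through the group where it is high. Alternatives were DESeq2 1.42.0, no count filter, other cell, doublet and clustering limits, subtraction of free RNA, single control sets, a replicate block and leaving out each library. The 6 members and the pathway lists were chosen with earlier results of these data known. Members are described in the classes where they were tested or held UMIs, with low receptor values given by their range. Pathway genes were named from the 3 called ones of greatest fold in a class and contrast, where the higher group reached 20 CPM, and up to 3 genes per member are named by likeness of pattern. Unnamed clusters held 1945 control, 3026 UIR and 1141 UUO cells.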

Additional observations from a re-analysis of the deposited data

Results flagged for a closer look

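Among the 20 groups of 5 control libraries examined, 2 had a library far from the others, where chance gives about 1 in 20. Both were the Ctrl library in endothelium, with *Pdgfra* at 24.7 CPM and *Pdgfrb* at 36.6 CPM against 0 to 1.38 CPM in the other 4 libraries, and Fibro 3 markers summed to 151 CPM there. Each receptor was seen in 0.2915% of the 686 control endothelial cells, and both in 0.1458%. The high values thus come from very few cells and do not describe the endothelium of that library.

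The 2 injuries differed, by the edgeR contrast of UUO with UIR, for *Pdgfb* in CD-P (log2FC 1.28, adjusted p = 0.0488077), *Pdgfb* in DT (1.26, adjusted p = 0.00386578) and *Pdgfd* in Fibro 1 (2.83, adjusted p = 0.00691342).

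An unnamed cluster outside the classes compared, cluster 19 of the cells re-clustered as tubule outside PT, held 71 UIR, 37 UUO and 0 control cells. It had *Pdgfrb* at 531 CPM in UIR and 481 CPM in UUO, and its best score on the naming markers was for Fibro 2 (0.391), with frTEC second (0.337). *Pdgfrb* was seen in 88.73% of its UIR and 89.19% of its UUO cells (42.25% and 45.95% when thinned to 1000 UMIs) and *Pdgfra* in 0. Fibro 2 markers summed to 7309 to 9813 CPM there in UIR libraries and to 4607 CPM in the 1 UUO library with enough cells. Fibro 1 markers summed to 1989 to 2701 CPM and to 1873 CPM. The part of these markers' cells in the *Pdgfrb* values was not tested.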

How the results depend on the processing

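The counts of called member and class pairs (UIR 9 higher and 6 lower, UUO 11 and 6, UUO over UIR 2 and 0) moved by over 1.5 times as follows. UUO over UIR had 1 higher call with DESeq2, a 15% mitochondrial limit, free RNA subtraction or resolution 2. With no count filter it had 4 higher calls, and UIR had 11 lower calls. Against the Ctrl set alone UIR had 3 higher and 0 lower, UUO 6 and 1, and UUO over UIR 1. Against the N set alone UIR had 5 higher calls. Against the AN set alone UIR had 5 higher and 1 lower, and UUO 0 lower. Leaving out 1 library gave 7 to 9 higher and 4 to 8 lower calls in UIR, 9 to 11 and 2 to 6 in UUO, and 1 to 4 and 0 to 0 in UUO over UIR, with 2 lower UUO calls without UUO1 and 4 higher calls between injuries without UIR2. *Pdgfb* in stroma against the Ctrl set alone fitted 7.11 in UIR and 7.30 in UUO, from 1 control library with 0 UMIs, which gives no bound and no direction. The estimate changed sign, without a call, for *Pdgfb* in macrophage cluster 0 (0.21 and 0.26) and for *Pdgfa* in LOH cluster 10 (-0.25), and the cause was not tested. Deviations of same-numbered libraries, with the unnumbered Ctrl, UIR and UUO counted among them, had a median r of 0.0022 over 113 pairs (-0.272 to 0.474). Over 226 pairs of other numbers the median was 0.0016 (-0.534 to 0.403). Medians over such wide ranges cannot show whether the numbers pair libraries. A replicate block left 9 and 6 in UIR and 11 and 6 in UUO, and gave 4 between injuries, gaining *Pdgfb* in LOH (0.65) and *Pdgfa* in CD-P (0.90). A group with 0 UMIs of a member allows a count of up to 3, and control LOH, DT and CD-P held few *Pdgfb* UMIs, so their fold changes are imprecise.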
